A study of Mus musculus with 12 samples.

Results

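Hedgehog signaling in the colon was followed through 9 genes: the ligands Shh and Ihh, the receptor Ptch1, the signal transducer Smo, the decoy receptor Hhip, the transcription factors Gli1, Gli2 and Gli3, and the inhibitor Sufu. They were chosen by name as the core of the pathway, with earlier results of these data known. All 9 were among the 54532 genes of the deposited table, and all 9 were among the 16904 genes that passed the filter on low counts. RNA-Seq of messenger RNA covered the colon of wild-type male C57BL/6J mice that were 5 weeks old when obtained, in 4 groups of 3 libraries. The control group drank plain water and received no treatment. The model group and both treated groups received dextran sodium sulfate (DSS), which damages the epithelial lining and induces acute colitis. The DXM group also received dexamethasone, a glucocorticoid, at 4 mg/kg, and the Rhy group also received rhynchophylline (Rhy), an alkaloid of Uncaria, which the acute colitis experiment gave at 2, 4 or 8 mg/kg. The dose of the sequenced Rhy mice is not given in the sources used here, nor is it stated which stretch of the colon was taken. The labels do not say how each library relates to a mouse, so the p-values measure the spread between these libraries only.

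Hedgehog ligands bind Ptch1, which otherwise holds Smo inactive, and free Smo then lets the Gli factors activate their targets. Gli1, Ptch1 and Hhip are themselves targets, so their transcripts are the usual readout of the pathway, and the Ptch1 and Hhip proteins in turn restrain it. In the adult gut the ligands come mainly from the epithelium, with Ihh the main ligand of the colon, and the responding cells are fibroblasts, smooth muscle and other cells of the stroma.

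Total counts were 14346478 to 17749716 per library. Model 1 and model 2 were far more alike than the other 65 pairs of libraries. Their common dispersion (the variance beyond counting noise) was 0.00201 against 0.0604 to 0.351. They were kept as separate libraries in the fit, so the spread of the model group may be understated in every comparison. Hoxb13, a homeobox gene expressed in the distal colon, had 0.165 CPM in control 3, 1.49 CPM in model 3 and 0 CPM in Rhy 1, against 72.0 to 316 CPM in the remaining 9 libraries. CPM is the count divided by the TMM-scaled library total. The 12 epithelial markers summed to 19182 to 32130 CPM over all libraries, and none of them was at 0 in a whole group. In a bulk sample fewer cells of a type and less RNA per cell cannot be told apart.

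The promoters of Ihh, Hhip and Ptch1 are shown because Ihh was the ligand detected most strongly, and Hhip and Ptch1 were the targets on the receptor side. RefSeq's promoter table (GRCm38.p6) held 7 of the 9 genes, without Shh and Gli1. The 250 bases before each start are printed 5′ to 3′ on the minus strand, and capitals mark the GC box GGGCGG or its complement CCGCCC. The windows are chr1:74951673-74951922 for Ihh, chr8:80058009-80058258 for Hhip and chr13:63565736-63565985 for Ptch1. The Ptch1 window lies inside the gene, which spans 63508328 to 63573598, so the start that it precedes is an internal one.
Ihh: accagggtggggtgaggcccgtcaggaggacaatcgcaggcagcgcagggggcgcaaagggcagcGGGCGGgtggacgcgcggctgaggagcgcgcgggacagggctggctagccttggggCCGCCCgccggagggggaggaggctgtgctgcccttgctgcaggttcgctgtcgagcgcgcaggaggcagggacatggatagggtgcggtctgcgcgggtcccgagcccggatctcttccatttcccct
Hhip: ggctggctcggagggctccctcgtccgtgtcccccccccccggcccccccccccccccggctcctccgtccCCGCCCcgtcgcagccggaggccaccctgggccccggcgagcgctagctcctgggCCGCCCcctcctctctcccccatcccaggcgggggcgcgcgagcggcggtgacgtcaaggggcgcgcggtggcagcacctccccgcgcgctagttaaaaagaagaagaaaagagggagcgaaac
Ptch1: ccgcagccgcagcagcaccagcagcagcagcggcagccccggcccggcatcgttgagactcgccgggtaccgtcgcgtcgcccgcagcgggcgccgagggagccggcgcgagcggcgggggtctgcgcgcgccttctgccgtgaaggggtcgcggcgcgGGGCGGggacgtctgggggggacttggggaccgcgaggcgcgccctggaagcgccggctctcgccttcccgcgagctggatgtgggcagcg
The GC content of the 7 windows of 300 bases, which run 50 bases past the start, was 56.3% to 76.3%, above the median of 52.7% over all promoters of the table. A GC box lay in 6 of the 7, all but Smo, and in 35.7% of the 32851 promoters. The Gli consensus GACCACCCA, searched on both strands, was in 0 of the 7 windows and in 0.253% of all promoters.

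Per length, Ihh was the most abundant of the 9 transcripts in every group. In FPKM, the count scaled to gene length and library size, Ihh averaged 56.0 ± 17.0 (SD, n = 3) in the control group and Smo followed with 4.21 ± 1.65. The remaining 7 averaged 0.319 to 2.10 FPKM in the control group, in the order Ptch1, Sufu, Gli1, Hhip, Shh, Gli2 and Gli3, and each overlapped its neighbour in this order. In the model group Ihh (41.7 FPKM), Smo (5.12 FPKM), Sufu (1.92 FPKM) and Ptch1 (1.37 FPKM) stood apart from their neighbours, whereas Gli1, Gli2, Gli3, Hhip and Shh overlapped at 0.283 to 0.370 FPKM. In the Rhy group only Ihh (39.7 FPKM) and Smo (4.76 FPKM) were apart from the next gene. In the DXM group Ptch1, Gli1, Sufu and Hhip overlapped at 1.83 to 2.22 FPKM, below Ihh (27.3 FPKM) and Smo (5.86 FPKM) and above Gli2 (0.792 FPKM), Gli3 (0.488 FPKM) and Shh (0.0658 FPKM). Hhip ranked 8 of the 9 in the model group and 6 in the DXM group, and Gli1 ranked 5 and 4.

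**Figure D1:**
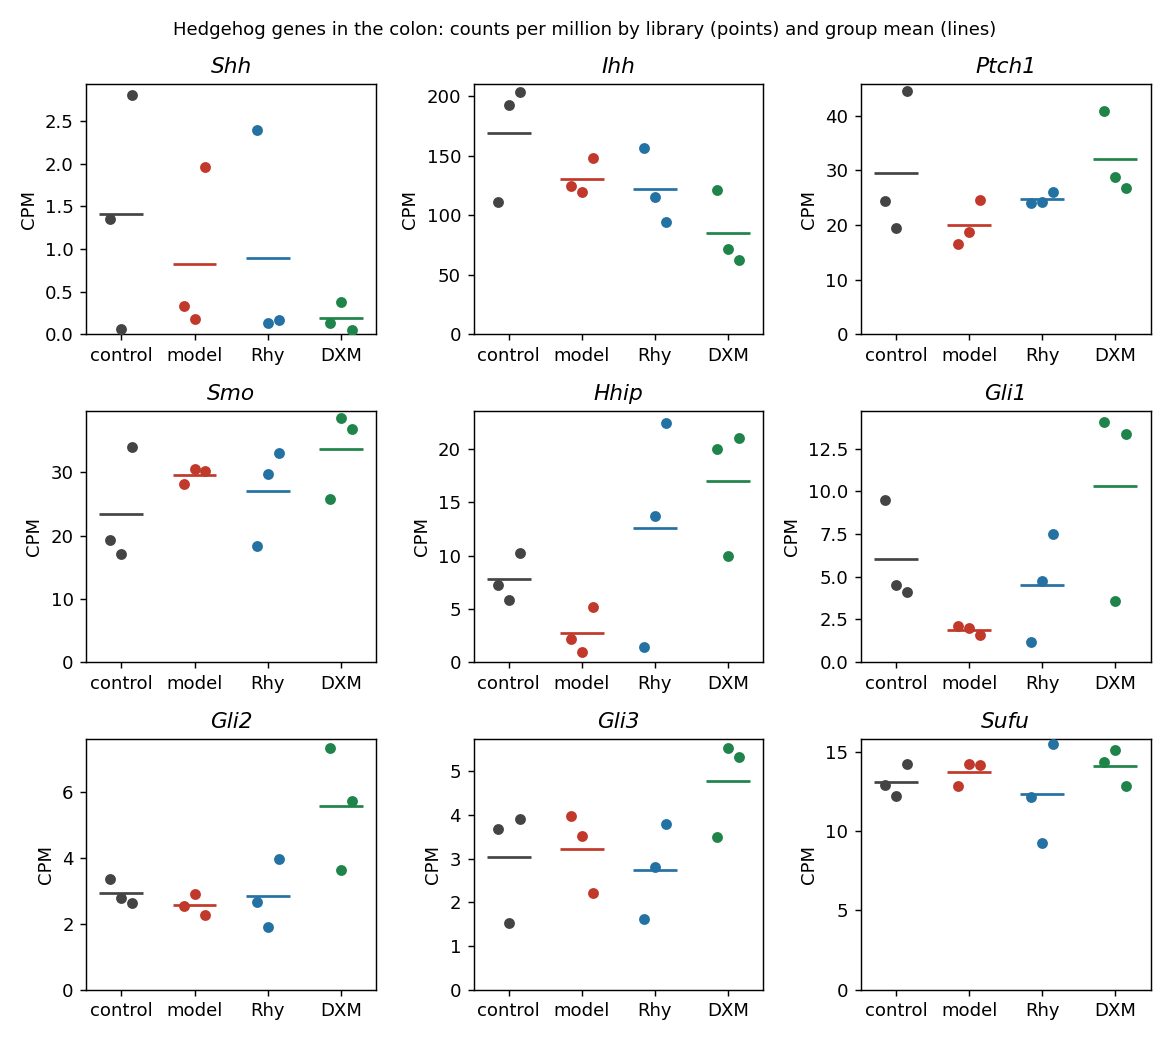
Level of each of the 9 Hedgehog genes in CPM (vertical axes, linear, from 0) in the 4 groups (horizontal axes), with 1 point per library in replicate order and a line at the group mean. The Gli1 points of the model group, 1.61 to 2.10 CPM, lie under all points of the control and DXM groups, and the Rhy points lie on both sides of them.

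Ihh (Indian hedgehog, ENSMUSG00000006538, GRCm38 chromosome 1 from 74945315 to 74951672) stood at 111, 193 and 204 CPM without DSS (control) and at 124, 120 and 148 CPM in the model group. Its levels were 156, 115 and 94.7 CPM with Rhy and 121, 71.7 and 62.4 CPM with DXM. The group means stepped down from 169 ± 50.6 CPM in the control group over 131 ± 15.3 in the model and 122 ± 31.4 in the Rhy group to 85.1 ± 31.5 in the DXM group, yet every group overlapped the one before it. The log2 fold change, with its standard error, was -0.37 ± 0.30 in the model against the control group, -0.10 ± 0.30 with Rhy against model and -0.62 ± 0.30 with DXM against model (edgeR's quasi-likelihood test, adjusted p = 0.724, 1.00 and 0.660). Set against the epithelium it is made in, Ihh had 5.96 to 6.28 CPM per 1000 CPM of the 12 epithelial markers in the model libraries, 3.45 to 9.59 in the control, 3.41 to 6.15 in the Rhy and 3.26 to 5.31 in the DXM libraries. On this scale the 3 DXM libraries all lay below the 3 model libraries, a comparison chosen after the values were seen and given without a test.

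Shh (Sonic hedgehog, ENSMUSG00000002633, chromosome 5 from 28456815 to 28467256) was close to the limit of detection. Its counts were 18, 1 and 51 in the control libraries, 6, 3 and 33 in the model, 28, 2 and 3 in the Rhy, and 2, 8 and 1 in the DXM libraries. The 3 highest counts, 51, 33 and 28, fell in control 3, model 3 and Rhy 1, the 3 libraries with almost no Hoxb13, and control 1 came next. Shh therefore differed more within the control, model and Rhy groups than between their means of 1.41 ± 1.37, 0.826 ± 0.990 and 0.899 ± 1.30 CPM. The fitted differences were -0.78 ± 1.25 in model against control, 0.07 ± 1.29 in Rhy against model and -2.04 ± 1.40 in DXM against model on the log2 scale (edgeR, adjusted p = 0.869, 1.00 and 0.724). All 3 DXM libraries had Hoxb13 at 195 to 236 CPM, and the DXM group, at 0.191 ± 0.174 CPM of Shh, held no Hoxb13-low library. The difference of DXM against model rested on model 3, without which it was -0.37. With a term for Hoxb13 in the fit, it was -0.73, and the difference of Rhy against model turned to -0.74. The part that the position along the colon has in the Shh level was not tested.

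Ihh made up at least 98.4% of the FPKM of these 2 ligands in every library, and its lowest level, 19.9 FPKM, was far above the highest of Shh, 0.993 FPKM. The ratio of Ihh to Shh was smallest in Rhy 1, control 3, model 3 and control 1, at 60.9 to 76.9. Dhh, the remaining mammalian ligand, had 1 to 27 counts per library and at most 0.302 FPKM. The noncoding genes 9530036O11Rik and Gm26894 overlap Shh on the opposite strand and had at most 29 and 21 counts, both in control 3, and without a stated strand setting their reads cannot be told apart from those of Shh.

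Ptch1 (ENSMUSG00000021466, chromosome 13 from 63508328 to 63573598), the receptor and a Hedgehog target, stood at 24.4, 19.5 and 44.5 CPM in the control group and at 16.5, 18.8 and 24.7 CPM in the model group. It had 24.1, 24.2 and 26.0 CPM with Rhy and 40.8, 28.8 and 26.7 CPM with DXM. The DXM libraries were all above the model libraries, and the other 2 comparisons overlapped. The log2 fold change was -0.56 ± 0.29 in model against control, 0.31 ± 0.29 in Rhy against model and 0.68 ± 0.29, or 1.60-fold, in DXM against model (edgeR, adjusted p = 0.561, 1.00 and 0.638). The first of these rested on control 3, without which it was -0.16.

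Smo (ENSMUSG00000001761, chromosome 6 from 29735503 to 29761365), which carries the signal across the membrane, stood at 19.3, 17.0 and 33.9 CPM in the control group and at 28.1, 30.5 and 30.1 CPM in the model group. It had 18.4, 29.6 and 33.0 CPM with Rhy and 25.7, 38.6 and 36.8 CPM with DXM. All groups overlapped, and the log2 differences were 0.34 ± 0.29, -0.13 ± 0.29 and 0.19 ± 0.29 in the order model against control, Rhy against model and DXM against model.

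Hhip (ENSMUSG00000064325, chromosome 8 from 79965851 to 80058006) encodes a membrane protein that binds the ligands and keeps them from Ptch1. It stood at 7.26, 5.84 and 10.2 CPM in the control group and at 2.21, 0.910 and 5.12 CPM in the model group, so that the groups did not overlap. With Rhy it stood at 1.46, 13.7 and 22.5 CPM, with Rhy 1 inside the model range and Rhy 2 and Rhy 3 above every control and model library. With DXM it stood at 20.0, 9.98 and 21.1 CPM, all above the model libraries. The fitted difference was -1.50 ± 0.78 (2.83-fold lower) in model against control, 2.20 ± 0.79 (4.58-fold higher) in Rhy against model and 2.63 ± 0.80 (6.18-fold higher) in DXM against model on the log2 scale. None passed the adjusted threshold of 0.05 (edgeR, adjusted p = 0.559, 1.00 and 0.622). Without Rhy 1 the difference of Rhy against model was 2.72, and without Rhy 3 it was 1.47. Hhip had the widest span of the 9 genes after Shh, 24.7-fold from the lowest to the highest library.

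Gli1 (ENSMUSG00000025407, chromosome 10 from 127329882 to 127341974), the Gli activator whose own transcription the pathway switches on, stood at 9.51, 4.52 and 4.12 CPM in the control group, at 2.10, 2.00 and 1.61 CPM in the model group and at 14.1, 3.57 and 13.4 CPM with DXM. The model group lay below both of these groups without overlap, while the DXM and control groups overlapped each other. With Rhy it stood at 1.20, 4.77 and 7.53 CPM: Rhy 1 was under every model library and the other two were over every model library. The log2 fold change was -1.66 ± 0.65 (3.16-fold lower) in model against control, 1.25 ± 0.64 (2.38-fold higher) in Rhy against model and 2.43 ± 0.66 (5.40-fold higher) in DXM against model (edgeR, adjusted p = 0.488, 1.00 and 0.622). Leaving out control 1, the highest control library, gave -1.18. Leaving out Rhy 1 gave 1.69 for Rhy against model, and leaving out Rhy 3 gave 0.66. These comparisons share the model libraries, and a low value there enters all 3 of them. Gli1 overlaps Arhgap9 on the opposite strand, which had 52 to 195 counts against 14 to 264 for Gli1, so without a stated strand setting some reads may be assigned to the wrong gene.

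Gli2 (ENSMUSG00000048402, chromosome 1 from 118834132 to 119053619), the main activator before Gli1 is induced, stood at 3.37, 2.78 and 2.63 CPM in the control group and at 2.54, 2.91 and 2.26 CPM in the model group. It had 2.65, 1.89 and 3.96 CPM with Rhy and 7.34, 3.62 and 5.72 CPM with DXM. DXM was the comparison in which the groups were apart, with a log2 fold change of 1.11 ± 0.36 (2.15-fold higher, edgeR adjusted p = 0.622), against -0.19 ± 0.36 in model against control and 0.14 ± 0.36 in Rhy against model.

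Gli3 (ENSMUSG00000021318, chromosome 13 from 15463235 to 15730026), which acts mostly as the repressor form, stood at 3.67, 1.53 and 3.90 CPM in the control group, 3.97, 3.52 and 2.20 CPM with DSS alone, 1.63, 2.81 and 3.79 CPM with Rhy and 3.50, 5.54 and 5.32 CPM with DXM. Its groups overlapped in all 3 comparisons, with log2 differences of 0.09 ± 0.44, -0.23 ± 0.44 and 0.57 ± 0.43. Sufu (ENSMUSG00000025231, chromosome 19 from 46396896 to 46488804) holds the Gli proteins in the cytoplasm. Its 12 values ran from 9.27 to 15.5 CPM, the narrowest relative range of the 9 genes at 1.67-fold, and its log2 differences were 0.07, -0.16 and 0.04, each ± 0.21. In DXM against model the estimates of the Gli factors ran in the order Gli1, Gli2, Gli3, and the differences between them were not tested.

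**Figure D2:**
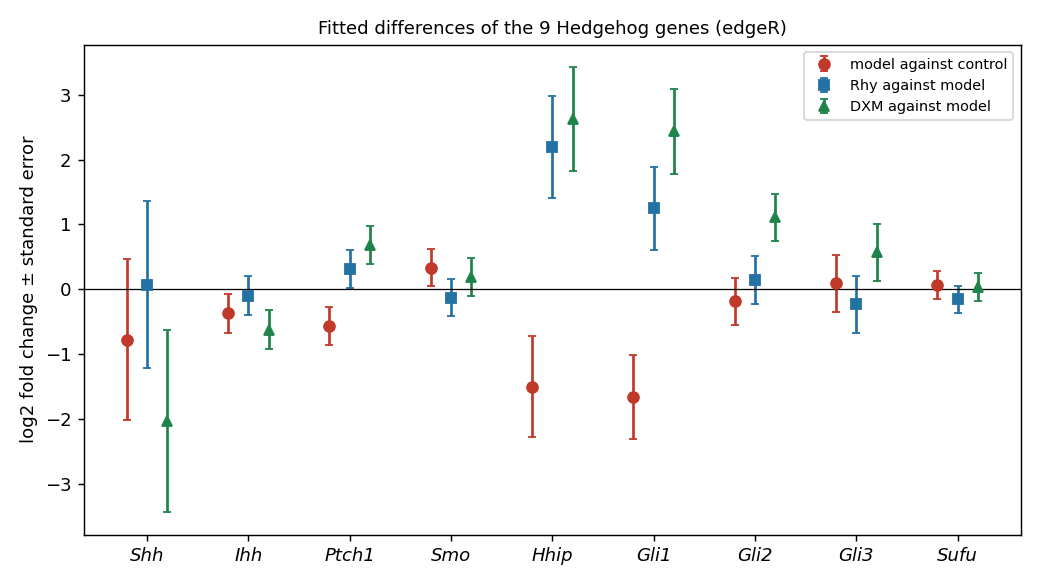
Log2 fold change (vertical axis) with its standard error from edgeR for the 9 genes (horizontal axis) in model against control (circles), Rhy against model (squares) and DXM against model (triangles). Gli1 and Hhip lie lowest in model against control, at -1.66 and -1.50, and highest in DXM against model, at 2.43 and 2.63, while the points of Sufu stay between -0.16 and 0.07.

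In model against control, 0 of the 9 genes passed the adjusted threshold, as did 0% of all genes tested in edgeR. At an unadjusted p under 0.05, 1 of the 9 was lower, Gli1, where 4.51% of all genes were lower by that rule, and 0 were higher, where 5.11% were. The groups did not overlap for 2 of the 9, Gli1 and Hhip, both lower, where 6.61% of all genes were lower without overlap. The median of the 9 log2 fold changes was -0.37, beside 0.01 over all genes. In Rhy against model, 0 of the 9 passed the adjusted threshold, as did 0% of all genes, and 1 was higher at an unadjusted p under 0.05, Hhip, where 1.74% of all genes were. No member was apart in this comparison, where 11.5% of all genes were, and the median was 0.07 beside -0.01. In DXM against model, 0 of the 9 passed the adjusted threshold, as did 0% of all genes. Here 4 of the 9 were higher at an unadjusted p under 0.05, namely Gli1, Hhip, Gli2 and Ptch1, where 4.89% of all genes were, and the same 4 were above the model libraries without overlap, where 10.4% of all genes were. The median was 0.57 beside -0.01. An exact two-sided permutation test of 3 against 3 libraries cannot go below p = 0.1, which each of the 6 gene and comparison pairs without overlap had. In the test for any difference among the 4 groups, Gli1, Gli2, Hhip and Ihh had an unadjusted p under 0.05 in edgeR, 4 of 9 where 11.5% of all genes had, and the adjusted p-values of the 9 ran from 0.403 to 0.909.

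DESeq2 on the compared groups alone placed 3 of these values past the adjusted threshold. It called Gli1 in model against control (log2 fold change -1.71, adjusted p = 0.0337), where it called 1.15% of the genes with an adjusted p, and Hhip (2.63, adjusted p = 0.000134) and Gli1 (2.45, adjusted p = 0.000149) in DXM against model, where it called 3.52%. In Rhy against model it called 0 of the 9 (Hhip adjusted p = 0.509, Gli1 adjusted p = 0.908) and 0.228% of the genes with an adjusted p. DESeq2 on all 12 libraries kept Gli1 in DXM against model past the threshold (2.45, adjusted p = 0.0398) but not Hhip (2.64, adjusted p = 0.0798), and it gave no adjusted p for Gli1 in model against control. In edgeR on the compared groups alone Gli1 and Hhip had adjusted p-values of 0.180 and 0.188 in DXM against model, and 0.401 and 0.474 in model against control. These calls thus depended on the tool and on which libraries were fitted, while the fold changes moved little. Each of these fits counted model 1 and model 2 as separate libraries, so the spread of the model group may be understated in them.

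Of the markers of cells that respond to Hedgehog, those of fibroblasts and telocytes moved with Gli1 and Hhip. The 12 fibroblast and telocyte markers, such as Pdgfra, Dcn and Col1a1, summed to 1330, 688 and 1034 CPM in the control libraries, 729, 725 and 636 CPM in the model, 484, 1282 and 1909 CPM in the Rhy and 1705, 1131 and 2271 CPM in the DXM libraries. All 12 were lower in model against control, 0 of them at an unadjusted p under 0.05, with a median log2 fold change of -0.49. In Rhy against model 11 were higher, 5 at an unadjusted p under 0.05, where 1.74% of all genes were, with a median of 0.63, and in DXM against model all 12 were higher, by 0.77 to 1.84, 11 of them at that p, where 4.89% of all genes were. Rhy 1, lowest in Gli1, was also lowest in these markers, and none of the 12 was at 0 throughout a group. The 11 smooth muscle markers summed to 3778 to 6982 CPM in the control and 4191 to 5406 CPM in the model libraries. They summed to 6412 to 7169 CPM in the Rhy and 5834 to 10268 CPM in the DXM libraries. Unlike Gli1 and Hhip, these markers hardly differed in model against control, with a median log2 fold change of 0.03. There 9 of the 11 were higher, 0 of them at an unadjusted p under 0.05. In Rhy against model 10 were higher (median 0.35), 1 of them at that p, where 1.74% of all genes were. In DXM against model all 11 were higher (median 0.69), 6 of them at that p, where 4.89% of all genes were. The 8 myeloid markers summed to 162 to 330 CPM in the control and 196 to 204 CPM in the model libraries. Their sums were 67.3 to 375 CPM in the Rhy and 258 to 630 CPM in the DXM libraries. These markers also moved with Gli1 and Hhip. In model against control 7 of the 8 were lower, with a median log2 fold change of -0.73. All 8 were higher in Rhy against model (median 0.37) and in DXM against model (median 1.05). Over the 12 libraries, Pearson's r of Gli1 was 0.86 with the mean log2 CPM of the myeloid markers. It was 0.89 with that of the fibroblast and telocyte markers.

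Per 1000 CPM of the fibroblast and telocyte markers, Gli1 had 7.15, 6.57 and 3.98 CPM in the control libraries, 2.87, 2.76 and 2.53 in the model, 2.48, 3.72 and 3.94 in the Rhy and 8.25, 3.15 and 5.89 in the DXM libraries. The model libraries were still below every control and every DXM library on this scale. Hhip, by contrast, had 1.26 to 8.05 CPM on this scale in the model libraries, which overlapped 5.46 to 9.88 in the control libraries and 3.01 to 11.8 in the Rhy libraries, but not 8.82 to 11.7 in the DXM libraries. Gli2 had 3.48, 4.02 and 3.56 in the model and 4.30, 3.20 and 2.52 in the DXM libraries. For Gli2, DXM 1 thus lay above every model library, and DXM 2 and DXM 3 lay below every one. Ptch1 had 22.6, 25.9 and 38.8 in the model and 23.9, 25.4 and 11.8 in the DXM libraries. For Ptch1, DXM 1 and DXM 2 thus lay within the model range, and DXM 3 lay below it. With the mean level of the fibroblast markers as a term in the fit, Gli1 was -1.03 in model against control, 0.07 in Rhy against model and 0.34 in DXM against model, and Hhip was -0.82, 0.66 and 0.37. With smooth muscle markers as the term, Gli1 was 0.92 and Hhip 2.45 in DXM against model. The groups differ in these markers, so a term for them also takes up part of the difference between groups, and the DXM values cannot be told apart from the marker level.

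**Figure D3:**
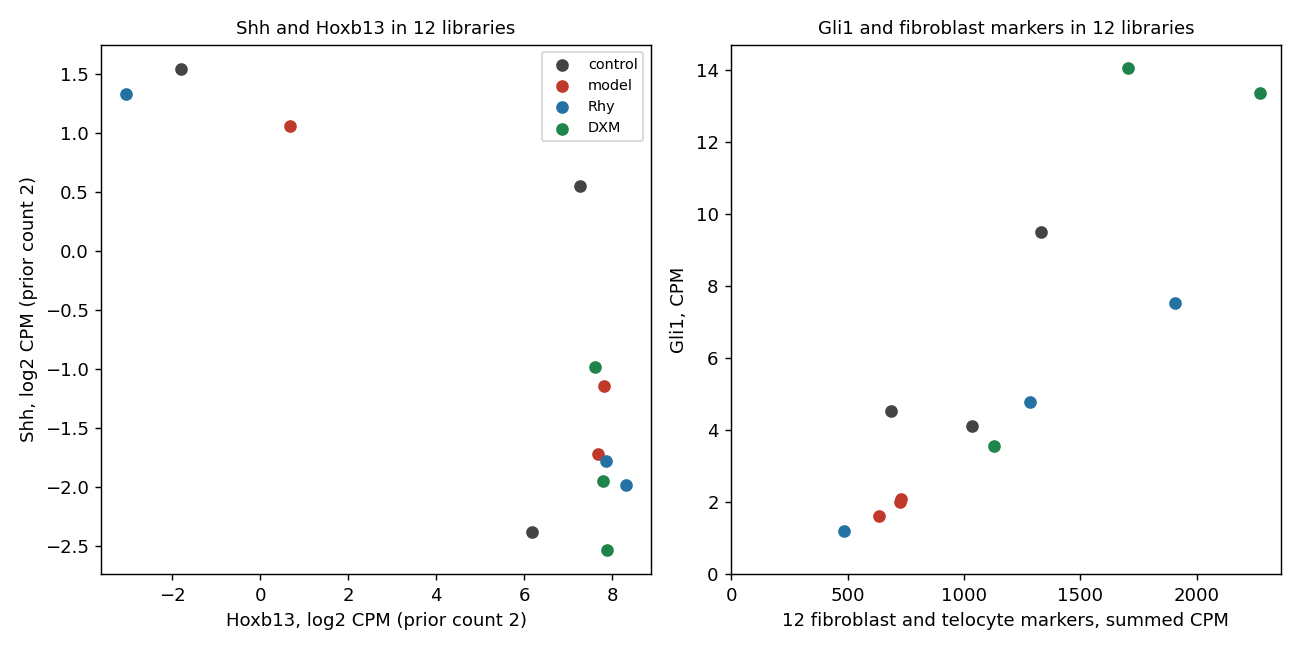
Left, Shh against Hoxb13, both as log2 CPM with a prior count of 2; right, Gli1 in CPM against the summed CPM of 12 fibroblast and telocyte markers; each point is 1 of the 12 libraries, coloured by group. The 3 libraries with almost no Hoxb13 hold the 3 highest Shh levels, and the 3 model libraries and Rhy 1 form the corner low in both Gli1 and the fibroblast markers.

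Without control 3, model 3 and Rhy 1, Gli1 was -1.81 in model against control, 1.61 in Rhy against model and 2.34 in DXM against model on the log2 scale, and Hhip was -2.09, 3.55 and 3.45. As in every fit that counts the near-identical pair as 2 libraries, the spread of the model group may be understated. In this smaller set that pair is all that remains of the model group, so its spread is understated there. With model 1 and model 2 summed into 1 library and all others kept, Gli1 was -1.71, 1.30 and 2.48, and Hhip was -1.23, 1.93 and 2.36.

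Beyond the core, 46 further genes of the pathway were listed by role, of which 45 could be tested and Lrp2, a co-receptor, fell under the filter. In edgeR 0 of them passed the adjusted threshold. In model against control 0 were higher and 3 of 45 lower at an unadjusted p under 0.05, where 4.51% of all genes tested were lower: the kinase Gsk3b (-0.35 ± 0.15) and the ubiquitin ligase genes Cul1 (-0.45 ± 0.15) and Itch (-0.55 ± 0.20). In Rhy against model 2 were higher, among them Cul1 (0.34 ± 0.15), and 1 was lower, where 1.74% and 1.98% of all genes tested were higher and lower. Cul1 had 70.6, 72.6 and 77.2 CPM in the model libraries, under 103, 107 and 90.3 CPM in the control and 99.7, 93.1 and 86.6 CPM with Rhy. In DXM against model 8 were higher and 1 lower, the kinase Csnk1d (-0.42 ± 0.15), where 4.89% and 2.80% of all genes tested were higher and lower. The 45 medians were -0.10, 0.07 and 0.12 in the 3 comparisons, beside 0.01, -0.01 and -0.01 over all genes.

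The genes higher with DXM included a co-receptor, genes of the cilium and stromal targets. The co-receptor Gas1 had 22.0, 24.0 and 16.0 CPM in the model and 42.5, 37.9 and 54.6 CPM in the DXM libraries (1.13 ± 0.32). At the primary cilium, where Smo is activated, Evc (1.14 ± 0.36), Evc2 (1.10 ± 0.39) and Gpr161 (1.42 ± 0.42) were higher, Gpr161 being a negative regulator of the pathway. The stromal transcription factors Foxf1 (1.01 ± 0.28) and Foxf2 (0.77 ± 0.35) and the secreted factor Bmp4 (1.07 ± 0.41) were higher as well. Each of these genes had an edgeR adjusted p of 0.622 to 0.646.

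Foxf1, Foxf2, Foxl1, Bmp4 and Bmp5 are stromal genes that Hedgehog signaling is known to sustain in the gut. Foxl1 and Bmp5 were added to this list after values were seen. All 5 estimates were negative in model against control (-0.94 to -0.11, median -0.66), all 5 positive in Rhy against model (0.34 to 0.66, median 0.43) and all 5 positive in DXM against model (0.76 to 1.07, median 0.85). At an unadjusted p under 0.05 the counts were 0, 0 and 3 of the 5, the last beside 4.89% of all genes that were higher in DXM against model. The list of 12 fibroblast and telocyte markers had the same directions. Of these markers, 12 were lower in model against control (median -0.49) and 11 were higher in Rhy against model (median 0.63). In DXM against model all 12 were higher, by 0.77 to 1.84. Whether the 5 stromal genes differed beyond the level of these markers was not tested. Foxf1 had 25.7, 23.1 and 29.8 CPM in the model and 52.0, 35.4 and 70.6 CPM in the DXM libraries, whereas the control libraries, at 31.7, 18.4 and 34.9 CPM, overlapped the model libraries. Of the genes for ligand lipidation and release, 0 of 6 had an unadjusted p under 0.05 in any comparison. The same held for the general targets Ccnd1, Ccnd2 and Bcl2, which unlike the stromal targets were all higher in model against control. In the order of the 3 comparisons, the log2 fold changes of Ccnd1 were 0.89, -0.48 and -1.10. Those of Ccnd2 were 0.81, 0.92 and 0.85, and those of Bcl2 were 0.16, 0.11 and 0.29.

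**Figure D4:**
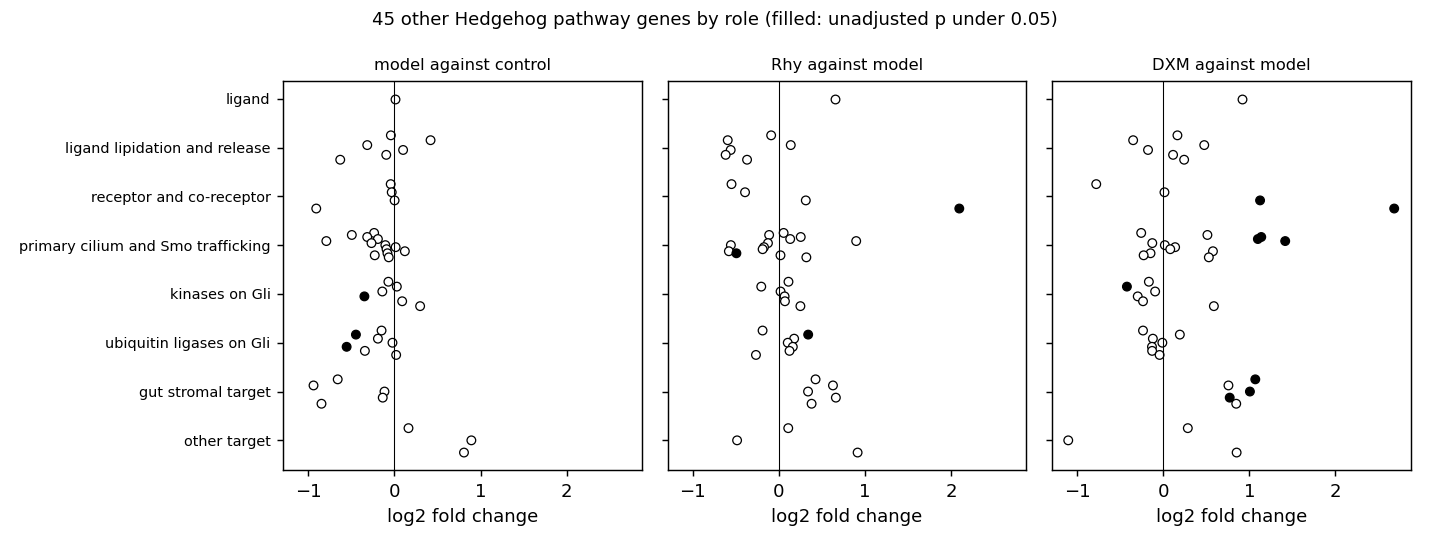
Log2 fold change (horizontal axes) of the 45 other Hedgehog pathway genes that could be tested, grouped by role (vertical axis), 1 point per gene, in the 3 comparisons. Filled points have an unadjusted p under 0.05 in edgeR. The 5 gut stromal targets, of which Foxl1 and Bmp5 were added after values were seen, lie below 0 in model against control. They lie above 0 in the other 2 panels. The 3 other targets lie above 0 in model against control.

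The genes most like Gli1 over the 12 libraries, by Pearson's r of log2 CPM, were Mrc1 (0.95), Siglec1 (0.95), Cpxm2 (0.94), Stab1 (0.94) and Cd93 (0.94). With the group means removed the r of these 5 was 0.91 to 0.95. Those most like Ihh were Pard6b (0.97), Plekhb2 (0.97), Mgrn1 (0.97), Yipf3 (0.97) and Unc5b (0.96), with 0.95 to 0.96 after the group means were removed. These values describe 12 libraries that differ in makeup, and they are the highest of all genes tested. The lists for Gli1 and Ihh held none of the other 8 core genes, and Mgrn1 was the only one of these 10 genes that was also among the further pathway genes.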

How the data were processed

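RNA-Seq of the colon gave 12 libraries, 3 in each of 4 groups taken from the treatment label. The authors deposited counts, the whole number of reads per gene without normalization. They also deposited FPKM values, and 100% of the 262985 FPKM values above 0 were recovered from the counts, gene length and DESeq2 size factors within 0.1% or 0.001 FPKM. The submitters' processing notes name HISAT2 2.0.5, featureCounts 1.5.0-p3 and DESeq2 1.16.1 and the build mm10. The strand setting and annotation release are not given in the sources used here; the coordinates of the 9 genes match GENCODE M21 on GRCm38. Of the 54532 genes 24548 had no count, and total counts of 14346478 to 17749716 limit precision for genes with few reads, such as Shh.

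The tests used edgeR 4.0.16 under R 4.3.3: filterByExpr at a minimum count of 10, TMM scaling, and the two-sided quasi-likelihood test (glmQLFit, glmQLFTest) with all 12 libraries in 1 fit and Benjamini-Hochberg adjustment over 16904 genes. The standard error is the log2 fold change divided by the square root of F. The model group was compared with the control group, the Rhy and DXM groups were each compared with the model group, and an overall test asked for any difference among the 4 groups. The RNA-Seq methods name only the control, model and Rhy groups, so DXM is a further comparison. CPM carries no prior count, and log2 CPM has a prior count of 2. The code was tested on simulated counts.

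Named genes are the 9 core genes, those of 46 other pathway genes with an unadjusted p under 0.05 (some of which are not reported here), and the 5 genes most correlated with Gli1 and with Ihh. Ccnd1, Foxl1, Bmp5, Dhh and the CPM per 1000 marker CPM were added after values were seen. The members and all lists were chosen with earlier results of these data known. Alternatives were RLE and upper-quartile scaling, every gene with a count, only the groups compared, DESeq2 1.42.0, limma 3.58.1 on log2(FPKM + 1) and log2(FPKM + 0.1), a replicate block, model 1 and model 2 summed, terms for Hoxb13 and for smooth muscle markers, and each library left out. Leaving out the 3 libraries with Hoxb13 under 2 CPM together and the term for fibroblast markers were added after the data were examined. No result was taken from columns of other samples, of which there were 0.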

Additional observations from a re-analysis of the deposited data

How the results depend on the processing

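In edgeR 0 genes passed the adjusted threshold in each comparison, and 1626, 628, 1300 and 1941 genes had an unadjusted p under 0.05 in model against control, in Rhy against model, in DXM against model and for any difference among the groups. The cause of the shifts that follow was not tested. The adjusted counts for model against control became 1 with every gene with a count, 1 with only the groups compared, 167 with DESeq2 on those groups and 46 with DESeq2 on all libraries. For Rhy against model they became 44 and 5 with DESeq2 on the groups and on all libraries and 2 with limma on log2(FPKM + 0.1). For DXM against model they became 2 with only the groups compared, 590 and 51 with DESeq2, 1 with limma on log2(FPKM + 0.1) and 2 without the 3 libraries low in Hoxb13. For any difference they became 12 with every gene with a count, 393 with DESeq2 and 1 without those 3 libraries. Unadjusted counts for model against control became 866 with model 1 and model 2 summed and 2686 without the 3 libraries. Those for Rhy against model became 972 with every gene with a count, 1021 with DESeq2 on the groups, 283 with model 1 and model 2 summed, 944 and 1085 with terms for Hoxb13 and smooth muscle, and 1453 without the 3 libraries. Those for DXM against model became 2514 with only the groups compared, 2644 with DESeq2 on them, 736 with model 1 and model 2 summed, and 503 and 391 with terms for smooth muscle and fibroblast markers. For any difference the count became 3140 without the 3 libraries. Leaving out each library gave 0 to 1 adjusted calls for the first 2 comparisons and any difference and 0 to 0 for DXM against model, and unadjusted counts of 888 to 2811, 289 to 1066, 537 to 1834 and 1142 to 2655.

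Gli1 and Hhip kept their direction in all 3 comparisons under every setting that was run. Their log2 ranges when a library was left out were -1.90 to -1.18 and -2.36 to -1.09 in model against control, 0.66 to 1.69 and 1.47 to 3.03 in Rhy against model, and 2.15 to 2.84 and 2.21 to 3.45 in DXM against model. The range for Shh in DXM against model was -3.10 to -0.37, the latter without model 3. Directions turned for estimates smaller than their standard errors. These were Gli3 in model against control (-0.018 with model 1 and model 2 summed, -0.038 with the Hoxb13 term) and in Rhy against model Shh (-0.10 with limma on log2(FPKM + 0.1), -0.32 with the models summed, -0.74 with the Hoxb13 term), Ihh (0.19 and 0.057 with the smooth muscle and fibroblast terms), Gli2 (-0.12 and -0.042 with those terms) and Smo (0.12 without the 3 libraries). In DXM against model they were Smo (-0.29) and Sufu (-0.038) with the fibroblast term, and so was Gli3 (-0.20), whose estimate exceeded its error. Leaving out a library also turned some: the ranges were -2.48 to 0.22 for Shh, -0.23 to 0.29 for Gli3 and -0.0029 to 0.11 for Sufu in model against control, -2.39 to 1.75 for Shh, -0.32 to 0.053 for Ihh, -0.30 to 0.082 for Smo, -0.18 to 0.37 for Gli2, -0.53 to 0.032 for Gli3 and -0.36 to 0.011 for Sufu in Rhy against model, and -0.020 to 0.10 for Sufu in DXM against model. Of the 18 pairs of libraries that share a replicate number, 6 had deviations correlated over 0.1, against 15 of 36 pairs with other numbers. Deviations from a mean of 3 libraries depend on each other, so this count cannot decide whether the numbers pair the libraries. With the replicate block 0 genes passed the adjusted threshold in model against control and 1820 had an unadjusted p under 0.05, and Gli1 and Hhip were -1.62 and -1.68. Shh, at 1 to 51 counts per library, is the gene that depth limits most.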
